A study of Homo sapiens with 12 samples.

Results

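The comparison described here sets SK-N-SH cells on a substrate of 8 kPa against the same cells on a substrate of 1 kPa, and it covers every expressed gene together with whole gene families. Its members are 8 RNA-seq libraries of the 12 in the series, placed in their groups by their labels: 4 from 1 kPa and 4 from 8 kPa. The other 4 libraries, from 30 kPa, entered the filter on scarce genes, the scaling of library sizes, the estimate of the spread and the fit with depth class, and none of the fold changes is taken from them. SK-N-SH is an established human neuroblastoma line that holds neuron-like cells and flat cells that cling to the substrate. The labels give no genotype, drug or time in culture that sets the groups apart, so the stiffness of the surface is the labelled difference. They number the libraries within a stiffness and do not say whether these came from separate cultures, so p-values measure only how far these libraries varied, which may be technical variation.

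A kilopascal (kPa) measures elastic modulus, which is low for soft surfaces and high for stiff ones. Cells sense the surface through integrins, which join the matrix outside to the actin skeleton inside. Tension in that skeleton is known to reach the nucleus through regulators such as YAP and TAZ, and adherent cells often divide less on softer surfaces. In neuroblastoma, a tumour of the sympathetic nervous lineage, cells are known to lie between an adrenergic state with neuronal genes and a mesenchymal state with matrix genes.

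All 4 libraries from 1 kPa and replicate 1 from 8 kPa had lower totals than the others. The 1 kPa libraries held 14317437, 14397124, 15896607 and 15504248 counts, 8 kPa replicate 1 held 14951116, and the other 8 kPa libraries held 25062397, 25349320 and 24237571. The 30 kPa libraries, at 23896536 to 27820973 counts, were all in the deep class. Depth class therefore nearly follows the comparison, and only 8 kPa replicate 1 breaks that overlap. The position of that library is given for all genes that passed and for the ribosomal protein and lysosomal families. On the first principal component, which carried 27.5% of the variance of the 12 libraries, 1 kPa replicate 2 lay at -42.7 and 8 kPa replicate 1 at 35.0, while 1 kPa replicate 4 (8.40) and 8 kPa replicate 4 (-0.444) lay past each other. Of the markers of the sympathetic lineage, all 10 that were tested were expressed and only TH, the first enzyme of catecholamine synthesis, was at 0. All 12 fibroblast markers were also expressed, at a summed level of 6005 to 6708 CPM (counts scaled to a common library size) at 1 kPa and 4825 to 6435 CPM at 8 kPa, and none passed the test. For immune cells, 12 of 13 markers were under 1 CPM and MS4A1, TYROBP and NKG7 were among those at 0. KRT5 and KRT14, which mark basal epithelium, and FOXD3 of the neural crest were also at 0, but other markers of their lists were expressed. The 11 epithelial markers summed to 70.5 to 84.0 CPM at 1 kPa and 68.1 to 96.6 CPM at 8 kPa, and 1 passed as lower. The 11 Schwann and glial markers, FOXD3 among them, summed to 81.1 to 95.4 CPM at 1 kPa and 84.0 to 94.4 CPM at 8 kPa. Of these 1 passed as higher. In each of these 2 lists 6 markers were under 1 CPM.

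Most ribosomal protein and mitotic genes passed as higher at 8 kPa. Lysosomal, interferon response, solute carrier and noncoding RNA genes passed as lower more often than as higher, although most of their members did not pass. Of 17960 genes tested, 2472 (13.8%) passed an adjusted p of 0.05 in the quasi-likelihood F-test of edgeR (Benjamini-Hochberg), the test behind every adjusted p given here. Of these 1467 (8.17%) were higher at 8 kPa and 1005 (5.6%) were lower. Shifts were small: called genes had a median absolute log2 fold change of 0.34, and over all genes tested the median was -0.01. All 8 kPa libraries lay above all 1 kPa libraries for 9.41% of genes tested and below them for 7.36%. Counts of family members are read against those shares of 8.17% and 5.6%. Where a gene is said to have risen or fallen by a value marked (log2), that value is its log2 fold change at 8 against 1 kPa.

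The number of calls changed with single libraries. The count of called genes was 771 without 8 kPa replicate 1 and 534 without 8 kPa replicate 3. It was 1096, 1414 and 1575 without 1 kPa replicates 2, 3 and 1. A core of 501 genes (331 higher and 170 lower) passed in each of the 12 fits that leave out a library. Of all genes tested, 2.77% passed as higher and 1.51% as lower without 8 kPa replicate 1, and 1.97% and 1.01% without 8 kPa replicate 3, the background for the counts given under those settings. Below, a call is said to rest on 8 kPa replicates 1 or 3 where it was lost without at least 1 of those libraries. The shallow 8 kPa replicate 1 lay above every 1 kPa library for 1453 of the 1467 genes called higher, a position it held for 29.9% of all genes tested. It lay below every 1 kPa library for 995 of the 1005 called lower, against 30.6% of all genes. That library helped to make the calls, so these counts are partly fixed by selection and are no independent check on depth. With the depth class as a second term no gene passed, although 2471 of the 2472 kept their direction and 4299 genes had an unadjusted p under 0.05 (12.8% of genes tested higher and 11.2% lower). After thinning to equal depth 7.2% passed as higher and 5.81% as lower. Depth class and stiffness can be told apart through 8 kPa replicate 1 only. The directions kept with depth class as a second term therefore rest on that library, which also helped to make the calls.

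The 104 gene families, built from symbols or lists, held 4330 distinct tested genes, and 103 families had at least 5 tested members. In 39 of the 103 the share called higher was more than 2 times the background of 8.17%, and in 12 the share called lower was more than 2 times 5.6%. Family medians moved little when gene length and GC content were taken out, by at most 0.04 on the log2 scale, and 8.23% of genes then passed as higher and 4.59% as lower. The median changed sign in 2 of the 103 families when 8 kPa replicate 1 was left out and in 8 when depth class was a second term, each with a median of at most 0.065 in size. The fit without 8 kPa replicate 1 shares all its libraries with the main fit. Depth class follows stiffness exactly in it, so its medians are no check on depth. Family counts of called members were less steady than medians. Of 54 counts of at least 5 members called in a direction, 52 moved by over 1.5 times without 8 kPa replicate 1 and all 54 without 8 kPa replicate 3. The number was 37, 34 and 24 without 1 kPa replicates 2, 3 and 1, and 10 or fewer for each of the other libraries.

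**Figure D1:**
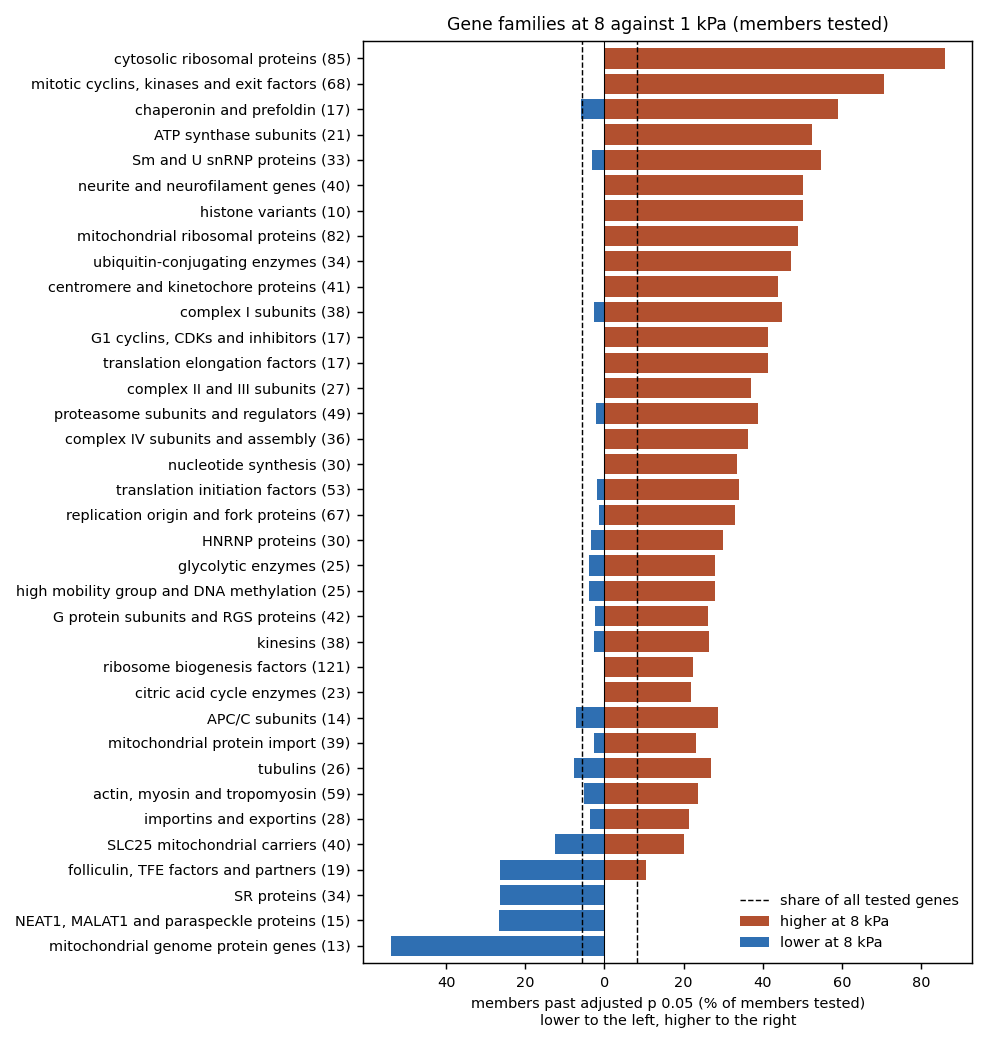
Share of tested members that passed an adjusted p of 0.05 in edgeR's test, for the 36 families of at least 10 tested members with the highest share in either direction. Bars to the right are members higher at 8 kPa, bars to the left members lower, and dashed lines mark the shares of all genes tested, 8.17% and 5.6%. Ribosomal protein and mitotic families reach farthest to the right, and genes of the mitochondrial genome farthest to the left.

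Genes of mitosis were the family with the highest median size after the neurite genes, and 48 of 68 tested members were higher at 8 kPa with none lower. The median log2 fold change of the family was 0.44, against -0.01 over all genes, and 67 of the 68 members had a value above 0. Mitosis is driven by cyclin-dependent kinase 1 with cyclin B, is held back by the spindle checkpoint until chromosomes are attached, and ends when the anaphase-promoting complex marks cyclin B and securin for destruction. PTTG1 encodes that securin, the inhibitor of the enzyme that parts sister chromatids. Its level was 24.5, 24.1, 27.9 and 28.1 CPM at 1 kPa and 41.1, 37.5, 39.05 and 46.3 CPM at 8 kPa. No library of 1 kPa reached the lowest library of 8 kPa, and the log2 fold change was 0.65, SE 0.09, adjusted p = 0.0052. DLGAP5, a spindle microtubule protein, was at 25.99, 21.5, 26.1 and 29.4 CPM at 1 kPa and 41.9, 35.7, 40.6 and 44.5 CPM at 8 kPa, again without overlap (log2 fold change 0.66, SE 0.10, adjusted p = 0.0052). MAD2L1, the core of the spindle checkpoint, was at 40.8, 27.9, 37.8 and 49.6 CPM at 1 kPa and 68.8, 59.1, 65.7 and 61.7 CPM at 8 kPa, with 1 kPa replicate 2 lowest of all (log2 fold change 0.71, SE 0.12, adjusted p = 0.0076). UBE2S, the ubiquitin-conjugating enzyme that extends chains for the anaphase-promoting complex, was at 36.8, 31.1, 35.9 and 45.96 CPM at 1 kPa and 62.5, 58.4, 61.01 and 55.7 CPM at 8 kPa. Its log2 fold change was 0.66, SE 0.11, adjusted p = 0.0066. UBE2C, which starts those chains, rose by 0.60 (log2) and PIMREG, a mitotic regulator, by 0.72. MKI67, the usual proliferation marker, rose and was at 236 ± 12.7 CPM at 8 kPa against 175 ± 38.1 CPM at 1 kPa (mean and SD, n = 4). In the other direction no mitotic gene passed. There were 33 members that passed without 8 kPa replicate 1, and 27 without 8 kPa replicate 3. In bulk RNA, more dividing cells and more of each RNA per dividing cell cannot be told apart. The calls of PIMREG and MKI67 rested on 8 kPa replicates 1 or 3 and on at least 1 further library.

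Centromere proteins, kinesins and replication factors moved the same way in smaller shares. Of 41 centromere and kinetochore genes, 18 rose and none fell (median 0.31). CENPA, the histone that marks centromeres, was at 5.94, 5.24, 6.63 and 7.22 CPM at 1 kPa and 12.7, 9.62, 10.04 and 8.23 CPM at 8 kPa (log2 fold change 0.68, SE 0.14, adjusted p = 0.012). ZWILCH and SKA2, which sit on the kinetochore, rose by 0.39 (log2) and 0.58, and CENPN, which reads the CENPA nucleosome, by 0.53. Of 38 kinesins, the motors of microtubules, 10 rose and KIFC2 alone fell, by 0.26 (log2). KIF20A, needed for cytokinesis, rose by 0.59 (log2), KIF4A of the central spindle by 0.49 and the cargo motor KIF1C by 0.28. These 3 were above every 1 kPa library in all 8 kPa libraries. Among 67 genes of replication origins and forks, 22 rose and 1 fell (median 0.24). POLD2, a subunit of DNA polymerase delta, was at 44.1, 40.7, 42.5 and 47.9 CPM at 1 kPa and 57.9, 54.8, 57.3 and 58.8 CPM at 8 kPa (log2 fold change 0.38, SE 0.06, adjusted p = 0.0055). ASF1B, a histone chaperone, rose by 0.61 (log2), DBF4, which activates the origin kinase, by 0.40, and UHRF1, which maintains DNA methylation, by 0.34. Nucleotide synthesis followed, with 10 of 30 higher and none lower, among them thymidine kinase TK1 at 0.54 (log2) and ribonucleotide reductase RRM2 at 0.47. RRM2 and thymidylate synthase TYMS (0.38, log2) share exonic bases with neighbouring genes, so their reads may be shared. The counts without 8 kPa replicate 3 were 6 centromere genes, 3 kinesins, 5 replication genes and 5 of nucleotide synthesis. The call of TK1 rested on 8 kPa replicates 1 or 3, and that of KIFC2 on these and on at least 1 further library.

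Other cell cycle families gave the following counts. Of 10 histone variants 5 rose, with H2AZ1 at 111, 78.6, 108 and 135 CPM at 1 kPa and 175, 147, 172 and 159 CPM at 8 kPa (log2 fold change 0.59, SE 0.12, adjusted p = 0.0097) and H2AX, the variant phosphorylated at DNA breaks, higher by 0.56 (log2). Only 3 of 31 clustered histone genes rose, H2BC12 by 0.47 (log2). Most clustered histone transcripts lack a poly(A) tail. Of 17 G1 cyclins, kinases and inhibitors 7 rose, including the kinase CDK4 by 0.28 (log2) and its inhibitor CDKN2C by 0.52. CDK4 overlaps an antisense gene over part of its exons, so its reads are uncertain. FOXM1, the transcription factor of the mitotic programme, was at 38.8, 26.8, 31.1 and 41.5 CPM at 1 kPa and 57.2, 45.1, 51.98 and 49.4 CPM at 8 kPa (log2 fold change 0.55, SE 0.12, adjusted p = 0.012), and TFDP1, the dimer partner of E2F factors, rose by 0.36 (log2). Of 26 tubulin genes 7 rose and 2 fell, with TUBG1, which nucleates microtubules, higher by 0.38 (log2) and TUBB by 0.35. Of 14 subunits of the anaphase-promoting complex itself, 4 rose and 1 fell. The share that rose was 28.6%, against 8.17% of all genes tested. In the order of replicates 1 and 3, leaving out that 8 kPa library gave 2 and 2 histone variants higher, 1 and 1 of the G1 group and 4 and 3 tubulins. The 5 of the complex were ANAPC11, ANAPC15, ANAPC1 and ANAPC16, higher, and ANAPC4, lower, named after their values were seen. The calls of CDK4 and CDKN2C rested on 8 kPa replicates 1 or 3, and those of ANAPC15, ANAPC16 and ANAPC4 on these and on at least 1 further library.

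Promoters of mitotic genes are known to carry a cell cycle genes homology region (CHR, TTTGAA), often with CCAAT boxes nearby, through which the DREAM complex and MYBL2 act. RefSeq windows of GRCh38.p14, from 250 bases before to 50 after each start, were matched to 8759 tested genes and searched on both strands for TTTGAA and for CCAAT. Windows of 6 mitotic genes that rose are shown to compare those that hold these letters with those that do not, as the 150 bases before the start, 5′ to 3′ on the gene's strand, with matches to either motif on either strand in capitals. DLGAP5 (chr14:55191586-55191735, minus strand) holds both motifs, as do CENPA (chr2:26785906-26786055, plus strand) and KIF4A (chrX:70289954-70290103, plus strand). KIF20A (chr5:138178962-138179111, plus strand) holds CCAAT in reverse only in the bases shown, and MAD2L1 (chr4:120066849-120066998, minus strand) and UBE2S (chr19:55407789-55407938, minus strand) hold neither there.
DLGAP5: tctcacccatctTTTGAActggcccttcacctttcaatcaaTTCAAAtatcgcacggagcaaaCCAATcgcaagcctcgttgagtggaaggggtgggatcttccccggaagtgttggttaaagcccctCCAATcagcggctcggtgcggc
CENPA: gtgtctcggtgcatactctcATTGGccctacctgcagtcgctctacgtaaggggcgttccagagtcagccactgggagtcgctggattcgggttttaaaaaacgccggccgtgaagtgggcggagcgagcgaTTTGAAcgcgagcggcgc
KIF4A: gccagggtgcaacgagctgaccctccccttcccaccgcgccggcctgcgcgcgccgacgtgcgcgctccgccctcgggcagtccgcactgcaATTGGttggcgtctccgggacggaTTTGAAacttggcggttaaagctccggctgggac
KIF20A: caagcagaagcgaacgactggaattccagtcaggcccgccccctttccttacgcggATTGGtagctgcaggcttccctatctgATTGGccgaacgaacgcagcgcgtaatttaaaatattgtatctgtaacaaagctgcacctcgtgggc
MAD2L1: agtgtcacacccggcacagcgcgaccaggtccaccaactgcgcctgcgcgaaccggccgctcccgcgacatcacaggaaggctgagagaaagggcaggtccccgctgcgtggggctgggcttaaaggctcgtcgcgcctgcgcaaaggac
UBE2S: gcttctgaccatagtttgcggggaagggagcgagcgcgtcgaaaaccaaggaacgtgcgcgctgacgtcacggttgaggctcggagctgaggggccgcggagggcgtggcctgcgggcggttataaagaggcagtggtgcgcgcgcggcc

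Of the 41 mitotic family windows, 28 held TTTGAA, 33 held CCAAT and 26 held both (63.4%), against 10.0%, 37.5% and 4.46% of all 8759 windows. Of 57 windows of cytosolic ribosomal protein genes, 3 held TTTGAA, 18 held CCAAT and 0 held both. Within the mitotic family the motifs did not separate the genes by response. Of the 26 genes with both, 19 were called higher (median 0.45), and of the 15 without both, 12 were (median 0.48). Outside the cell division families, 13.4% of 329 genes with both motifs were called higher against 8.66% of those without both. A match is a description of letters and not of a bound site.

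**Figure D2:**
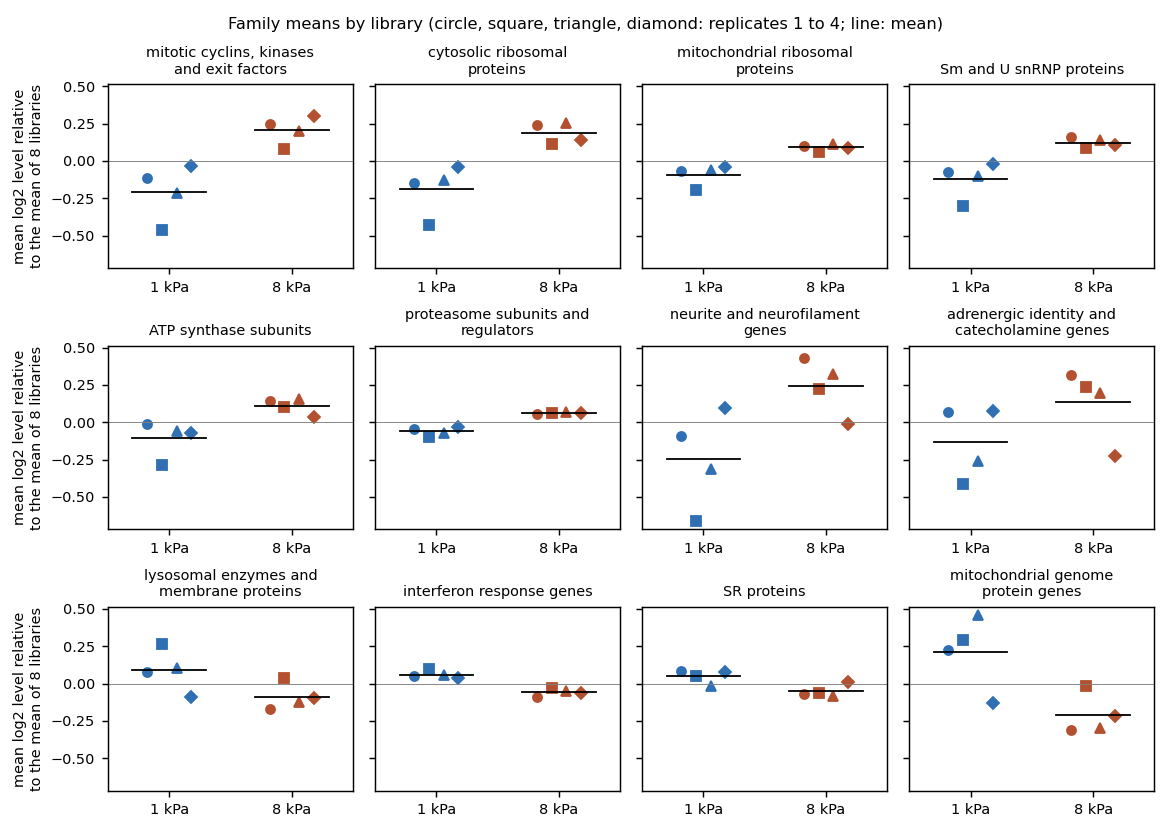
Mean log2 level of each family's tested members in each library, relative to the mean of the 8 libraries. Points are libraries (circle, square, triangle and diamond for replicates 1 to 4) and lines are group means. Libraries of the mitotic and ribosomal families do not overlap between stiffnesses, while those of the neurite, adrenergic and lysosomal families do.

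Ribosomal protein genes made the family with the highest share of calls: 73 of 85 tested were higher at 8 kPa and none were lower. The median log2 fold change was 0.42, and 8 kPa replicate 1 lay above all 1 kPa libraries for 77 of the 85. These proteins form the small (RPS) and large (RPL) subunits of the cytosolic ribosome, and their genes are among the most highly expressed in growing cells. RPS3, of the small subunit, was at 475, 397, 486 and 541 CPM at 1 kPa and 707, 629, 732 and 661 CPM at 8 kPa. The groups did not overlap, and the log2 fold change was 0.52, SE 0.09, adjusted p = 0.0069. RPL3, near the peptidyl transferase centre of the large subunit, was at 557, 454, 571 and 666 CPM at 1 kPa and 887, 751, 858 and 813 CPM at 8 kPa (log2 fold change 0.56, SE 0.10, adjusted p = 0.0076). RPS9 and RPL34 rose by 0.47 (log2) and 0.45. RPL36A was the member with the lowest value, at 21.6, 34.02, 21.5 and 21.5 CPM at 1 kPa and 13.7, 21.5, 17.6 and 23.7 CPM at 8 kPa, which did not pass (log2 fold change -0.35, SE 0.18, adjusted p = 0.19). In the fit without 8 kPa replicate 1, 45 members passed, and in that without 8 kPa replicate 3, 35.

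Processed pseudogenes of ribosomal proteins were among the 15 genes with the highest fold change, of those called at 5 CPM or more without overlap. RPL39P3 rose by 1.31 (log2), RPL7AP6 by 0.90, RPL7P9 by 0.83 and RPS2P5 by 0.71. Such copies are nearly identical to their parents, so the counting may have split reads between them and these values are uncertain. The parent RPS2 rose by 0.62 (log2) and also shares exonic bases with a neighbour.

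Among genes of the mitochondrial ribosome and of translation, nearly all that passed were higher. Of 82 mitochondrial ribosomal proteins, which translate the few proteins encoded in mitochondrial DNA, 40 rose and none fell (median 0.22). MRPS7 of the small subunit was at 39.3, 35.9, 41.2 and 41.5 CPM at 1 kPa and 54.7, 52.8, 52.02 and 46.2 CPM at 8 kPa (log2 fold change 0.38, SE 0.06, adjusted p = 0.0066), and MRPL41, MRPL17 and MRPL23 of the large subunit rose by 0.48 (log2), 0.32 and 0.52. All 4 were higher in each 8 kPa library than in any at 1 kPa. Of 53 initiation factor genes 18 rose and 1 fell. EIF4EBP1, which blocks the cap-binding protein EIF4E when it is not phosphorylated by mTORC1, was at 15.2, 10.98, 15.5 and 18.2 CPM at 1 kPa and 27.03, 24.7, 25.9 and 22.8 CPM at 8 kPa (log2 fold change 0.74, SE 0.12, adjusted p = 0.0063). EIF3K and EIF3I, of the scaffold on the small subunit, rose by 0.34 (log2) and 0.32, and EIF5A by 0.45. Among 17 elongation and release factors 7 rose and none fell. EEF1A1, which brings charged tRNA to the ribosome, was at 4490.4, 4757, 5253 and 5859.8 CPM at 1 kPa and 7116, 6267, 7056 and 6567 CPM at 8 kPa (log2 fold change 0.41, SE 0.09, adjusted p = 0.015), EEF2 rose by 0.34 (log2) and the release factor ETF1 by 0.28. Without 8 kPa replicate 3 the counts were 10 mitochondrial ribosomal proteins, 5 initiation factors and 1 elongation factor. They were 14, 7 and 2 without 8 kPa replicate 1. The calls of EEF1A1 and EEF2 rested on 8 kPa replicates 1 or 3.

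Genes that make ribosomes passed in smaller shares than ribosomal proteins themselves. Of 121 biogenesis factors 27 rose and none fell, with a median of 0.11, and 7 passed without 8 kPa replicate 1. EBNA1BP2, of the large subunit precursor, was at 74.1, 74.6, 82.8 and 76.5 CPM at 1 kPa and 95.4, 100.1, 97.3 and 103 CPM at 8 kPa (log2 fold change 0.36, SE 0.05, adjusted p = 0.0052). NHP2, a protein of the particles that pseudouridylate RNA, rose by 0.52 (log2) and BYSL of the small subunit precursor by 0.30. Of 18 subunits of RNA polymerases I and III, which transcribe ribosomal and transfer RNA, 3 rose. Only 3 of 24 cytosolic aminoacyl-tRNA synthetases rose, KARS1 by 0.33 (log2), FARSA by 0.24 and FARSB by 0.25. Host genes of small nucleolar RNAs gave 3 of 28 called higher and 2 called lower. Of the 28, 20 had a log2 fold change below 0, and the median was -0.14. SNHG6 rose by 0.44 (log2), SNHG29 by 0.39 and SNHG16, which overlaps a gene on the other strand, by 0.26, while SNHG11 fell by 0.31 and SNHG20, which shares exonic bases with a neighbour, by 0.33. The calls of FARSA, FARSB, SNHG11 and SNHG20 rested on 8 kPa replicates 1 or 3 and on at least 1 further library.

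In RNA splicing, core particle proteins passed mostly as higher, and the SR proteins that passed were all lower. Of 33 Sm, LSM and snRNP proteins, which coat the small nuclear RNAs of the spliceosome, 18 rose and 1 fell (median 0.26). Of 34 SR proteins and relatives, which bind exons and steer splice site choice, 9 fell and none rose (median -0.14), so most SR members did not pass. Their mean log2 levels overlapped between groups, at -0.015 in 1 kPa replicate 3 and 0.013 in 8 kPa replicate 4, relative to the 8 libraries. LSM4 was at 45.3, 31.2, 41.9 and 45.4 CPM at 1 kPa and 64.4, 61.01, 64.6 and 52.7 CPM at 8 kPa (log2 fold change 0.56, SE 0.10, adjusted p = 0.0079), and LSM5 and LSM3 rose by 0.41 (log2) and 0.65. SREK1 was at 191, 209.5, 196 and 202 CPM at 1 kPa and 156, 163, 152 and 175 CPM at 8 kPa (log2 fold change -0.30, SE 0.05, adjusted p = 0.0076). PNISR was at 458, 541, 460.5 and 452 CPM at 1 kPa and 328, 369.9, 339.6 and 422 CPM at 8 kPa, with the highest value in 1 kPa replicate 2 and 8 kPa replicate 4 nearest to the 1 kPa range (log2 fold change -0.39, SE 0.08, adjusted p = 0.012). SRSF11 fell by 0.33 (log2) and ARGLU1 by 0.32. Without 8 kPa replicate 1, 11 of the core proteins and 4 of the SR family passed, and without 8 kPa replicate 3, 9 and 2. The calls of SRSF11 and ARGLU1 rested on 8 kPa replicates 1 or 3.

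Other RNA-handling families differed in share and direction. Of 30 HNRNP proteins, which package nuclear RNA, 9 rose and 1 fell: HNRNPAB rose by 0.42 (log2), HNRNPA0 by 0.45 and the neuronal splicing repressor PTBP2 fell by 0.27. SF3 and PRPF splicing factors were split, 5 of 26 higher and 4 lower, with SF3B5 up by 0.34 (log2) and PRPF38B down by 0.26. Among 87 genes of RNA polymerase II and its general factors, 11 rose and 2 fell. The small subunit POLR2E rose by 0.44 (log2), whereas POLR2A, the catalytic subunit, fell by 0.19. Nuclear transport gave 6 of 28 importins and exportins higher and 1 lower, with the GTPase RAN up by 0.38 (log2), its partner RANBP1 by 0.48 and the adaptor KPNA2 by 0.34. Both the HNRNP and the transport shares (30% and 21.4% higher) lay above the background of 8.17%. Leaving out 8 kPa replicate 1 left 3 HNRNP, 3 SF3 and PRPF, 2 polymerase and 2 transport genes higher, and leaving out 8 kPa replicate 3 left 3, 1, 1 and 2. The call of RAN rested on 8 kPa replicates 1 or 3, and those of PTBP2 and POLR2A on these and on at least 1 further library.

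Nuclear and mitochondrial genes of the respiratory chain that passed moved in opposite directions, with 1 exception in complex I. Of the nuclear-encoded subunits, 17 of 38 of complex I, 10 of 27 of complexes II and III, 13 of 36 of complex IV and 11 of 21 of ATP synthase were higher at 8 kPa, with 1 lower in complex I and none in the rest. All 13 protein genes of the mitochondrial genome had log2 fold changes below 0 and 7 passed, with a median of -0.38. The respiratory chain pumps protons across the inner mitochondrial membrane, ATP synthase uses the gradient, and its subunits come from both genomes. NDUFB3, an accessory subunit of complex I, was at 36.96, 34.6, 37.3 and 37.4 CPM at 1 kPa and 51.5, 47.4, 51.1 and 46.6 CPM at 8 kPa (log2 fold change 0.43, SE 0.06, adjusted p = 0.0052). NDUFB7 and NDUFS5 rose by 0.48 (log2) and 0.39, SDHB of complex II by 0.32, UQCRH of complex III by 0.41, COX7A2L and COX7B of the complex IV group by 0.38 and 0.35, and ATP5F1C and ATP5PD of ATP synthase by 0.29 and 0.24. MT-CYB, cytochrome b, was at 9601, 11350.0, 11422 and 8402 CPM at 1 kPa and 6826, 8263, 6754 and 7522 CPM at 8 kPa (log2 fold change -0.47, SE 0.11, adjusted p = 0.017). MT-ND3 was at 3875, 4935, 4744 and 3266 CPM at 1 kPa and 2634, 3422, 2688 and 2893 CPM at 8 kPa, so that 1 kPa replicate 4 overlapped the 8 kPa libraries (log2 fold change -0.53, SE 0.12, adjusted p = 0.017). MT-ND4L fell by 0.59 (log2), and MT-CO3, at -0.25, did not pass. MT-ATP8, at -0.98 (log2), overlaps MT-ATP6 and its reads are uncertain. The calls of UQCRH, COX7B, MT-CYB, MT-ND3 and MT-ND4L rested on 8 kPa replicates 1 or 3, and that of MT-ATP8 on these and on at least 1 further library.

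No gene of the mitochondrial genome passed without 8 kPa replicate 1 or without 8 kPa replicate 3, and 13 passed without 1 kPa replicate 4. The count was 4 and 3 without 1 kPa replicates 2 and 3. As a share of all counts, the mitochondrial genome gave 10.7% ± 0.553 at 8 kPa against 13.5% ± 1.59 at 1 kPa (mean and SD, n = 4), a difference of -2.79 percentage points (exact permutation test, two-sided, p = 0.0571). Libraries at 1 kPa ranged from 11.3% to 14.8% and at 8 kPa from 10.2% to 11.5%, so the groups overlapped in 1 library each. In the nuclear families, 4 complex I subunits, 4 of complexes II and III, 3 of complex IV and 4 of ATP synthase passed without 8 kPa replicate 1. Without 8 kPa replicate 3 those counts were 4, 2, 2 and 2.

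Mitochondrial import and central metabolism followed the nuclear subunits in direction. Of 39 import genes 9 rose and 1 fell, TOMM40, the pore of the outer membrane, by 0.30 (log2) and TIMM13, a chaperone between the membranes that overlaps a neighbour, by 0.47. Of 23 citric acid cycle enzymes 5 rose and none fell. IDH2, the mitochondrial isocitrate dehydrogenase, was at 26.3, 20.96, 24.4 and 30.8 CPM at 1 kPa and 43.2, 39.00, 39.7 and 32.9 CPM at 8 kPa (log2 fold change 0.59, SE 0.10, adjusted p = 0.0075), and MDH2 rose by 0.21 (log2). Glycolysis gave 7 of 25 higher and 1 lower, with PGAM1 up by 0.35 (log2), TPI1 by 0.32 and PFKFB2, a regulator of fructose 2,6-bisphosphate, down by 0.27. Leaving out 8 kPa replicate 1 left 5 import genes, 1 citric acid cycle enzyme and 3 glycolytic enzymes higher, and leaving out 8 kPa replicate 3 left 4, 1 and 2. Without 1 kPa replicate 2 the citric acid cycle count was also 1. Cholesterol synthesis, with 2 of 24 higher and none lower, lay near the background of 8.17%. The call of TPI1 rested on 8 kPa replicates 1 or 3, and that of MDH2 on these and on at least 1 further library.

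**Figure D3:**
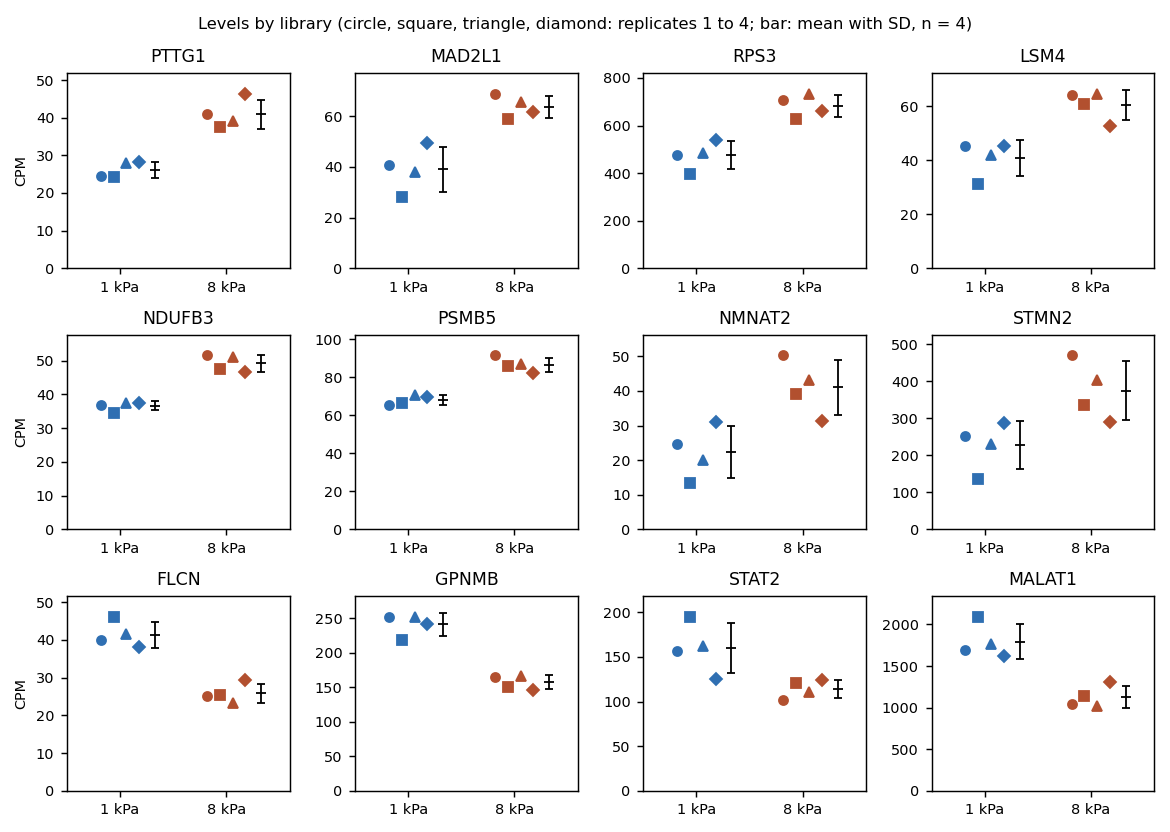
CPM of 12 genes in each library of 1 kPa (left of each panel) and 8 kPa (right), with the mean and SD of 4 libraries. The groups do not overlap for PTTG1, MAD2L1, RPS3, LSM4, NDUFB3, PSMB5, NMNAT2, STMN2, FLCN, GPNMB, STAT2 or MALAT1, but the gap is narrow for NMNAT2, STMN2 and STAT2.

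Some genes that fell in families otherwise mostly higher were scarce. EIF4A1, SNRPN, NDUFA13, PAM16, PSMA2, PFDN5 and POLD4, chosen after their values were seen, had mean levels over the 8 libraries of 2.00 to 10.1 CPM. Others, such as KIFC2, PTBP2 and PFKFB2, were not scarce. Of the 7 scarce genes, 6 share more than 10% of their exonic bases with another gene on the same strand, so their counts may hold the reads of only part of the gene and are uncertain. The calls of EIF4A1, SNRPN, NDUFA13, PAM16, PSMA2 and PFDN5 rested on 8 kPa replicates 1 or 3 and on at least 1 further library.

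In protein turnover, proteasome and chaperonin genes that passed were mostly higher at 8 kPa, and the lysosomal genes that passed were all lower. Of 49 proteasome genes 19 rose and 1 fell, of 17 chaperonin and prefoldin subunits 10 rose and 1 fell, and of 34 ubiquitin-conjugating enzymes 16 rose and none fell. Of 71 lysosomal enzymes and membrane proteins none rose and 13 fell, and 67 of the 71 had a log2 fold change below 0 (median -0.18). The proteasome degrades proteins tagged with ubiquitin, while the lysosome digests proteins, lipids and glycans in an acid compartment. PSMB5, a catalytic subunit of the proteasome core, was at 65.5, 66.5, 70.7 and 69.8 CPM at 1 kPa and 91.6, 85.9, 86.9 and 82.5 CPM at 8 kPa (log2 fold change 0.35, SE 0.05, adjusted p = 0.0052). PSMB6 was at 48.6, 50.9, 50.1 and 52.7 CPM at 1 kPa and 64.04, 66.7, 64.4 and 62.2 CPM at 8 kPa (log2 fold change 0.35, SE 0.05, adjusted p = 0.0052), and PSMD8 and PSMC3 of the cap rose by 0.34 (log2) and 0.33. These 4 genes were above the 1 kPa range in every 8 kPa library. CCT7 of the cytosolic chaperonin and VBP1 of prefoldin, which fold actin and tubulin, rose by 0.29 (log2) and 0.36. UBE2L3, which works with parkin-type ligases, rose by 0.41 (log2) and the brain-expressed UBE2QL1 by 0.89. AHSA1, which activates the HSP90 chaperone, rose by 0.32 (log2), in a heat shock family with only 4 of 33 higher. Without 8 kPa replicate 1, 12 proteasome genes, 4 of the chaperonin group and 7 conjugating enzymes passed, and without 8 kPa replicate 3, 8, 2 and 4.

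Among lysosomal genes, CTSA, a protease that also stabilises sialidase, was at 270.3, 303, 294 and 242 CPM at 1 kPa and 209.5, 239, 213 and 231 CPM at 8 kPa (log2 fold change -0.31, SE 0.07, adjusted p = 0.016). GUSB, which cleaves glucuronides from glycosaminoglycans, was at 47.2, 52.1, 49.1 and 46.4 CPM at 1 kPa and 39.6, 41.9, 41.2 and 44.3 CPM at 8 kPa (log2 fold change -0.22, SE 0.05, adjusted p = 0.02). TPP1, a peptidase that shares exonic bases with a neighbour, fell by 0.36 (log2), ACP5 by 0.47 and the membrane protein CD63 by 0.23. Replicate 1 of 8 kPa lay below every 1 kPa library for 52 of the 71. The count of 13 was 1 without either 8 kPa replicate 1 or 8 kPa replicate 3 and was 35 without 1 kPa replicate 4. It was 3, 6 and 7 without 1 kPa replicates 2, 1 and 3. Of 21 genes of the proton pump that acidifies the lysosome 3 rose and 1 fell, and ATP6V1F rose by 0.33 (log2). The calls of CTSA and ATP6V1F rested on 8 kPa replicates 1 or 3, and those of GUSB, ACP5 and CD63 on these and on at least 1 further library.

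The folliculin group, which reports amino acids from the lysosome and controls the TFE transcription factors, held more members called lower than higher. Of 19 tested members 5 passed as lower and 2 as higher. By sign alone, 11 had a log2 fold change above 0 and 8 below it (median 0.05). GPNMB, a lysosomal and surface glycoprotein and a known TFE target, was at 252, 218, 252 and 242 CPM at 1 kPa and 165, 150.1, 166 and 147 CPM at 8 kPa. The lowest 1 kPa library lay far above the highest 8 kPa library, and the log2 fold change was -0.62, SE 0.08, adjusted p = 0.0052. FLCN was at 39.9, 46.2, 41.5 and 38.1 CPM at 1 kPa and 25.2, 25.3, 23.4 and 29.3 CPM at 8 kPa (log2 fold change -0.68, SE 0.09, adjusted p = 0.0052), with some exonic bases shared with a neighbour. Its partner FNIP1 was at 72.4, 74.3, 71.7 and 68.4 CPM at 1 kPa and 55.6, 58.8, 54.5 and 58.3 CPM at 8 kPa (log2 fold change -0.34, SE 0.06, adjusted p = 0.0087). LAMTOR5, of the complex that anchors the Rag GTPases, rose by 0.32 (log2). GPNMB, FLCN and FNIP1 passed in each of the 12 fits that left out a library. Of 44 TRIM ubiquitin ligases 8 fell and 1 rose, with TRIM56 down by 0.28 (log2), TRIM66 by 0.40 and TRIM47, which overlaps an antisense gene, by 0.81. TRIM69, named after its values were seen, rose by 0.41 (log2). The folliculin group had 3 members lower without 8 kPa replicate 1 and 3 without replicate 3, and the TRIM family 5 and 4. The calls of TRIM47 and TRIM69 rested on 8 kPa replicates 1 or 3 and on at least 1 further library.

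The neurite and adrenergic genes that passed were higher at 8 kPa, with wide spread between libraries of a stiffness. Of 40 neurite and neurofilament genes 20 rose and none fell, and the median of 0.51 was the highest of all families with at least 10 tested members. Of 25 adrenergic identity genes 4 rose and none fell (median 0.24). STMN2, a microtubule-destabilising protein of growing axons, was at 251, 137, 232 and 288 CPM at 1 kPa and 469.6, 335, 404 and 290.3 CPM at 8 kPa, so the highest 1 kPa library nearly met the lowest at 8 kPa (log2 fold change 0.72, SE 0.19, adjusted p = 0.024). STMN1 rose by 0.44 (log2) and MARCKSL1, an actin and membrane regulator, by 0.51. CPLX1, a clamp of synaptic vesicle fusion, was at 4.47, 1.94, 3.06 and 5.51 CPM at 1 kPa and 10.04, 7.53, 8.13 and 5.44 CPM at 8 kPa, with overlap between 1 kPa replicate 4 and 8 kPa replicate 4 (log2 fold change 1.03, SE 0.25, adjusted p = 0.019). TAGLN3, a neuronal actin-binding protein, rose by 0.65 (log2). PHOX2A, a transcription factor of the sympathetic lineage, rose by 0.49 (log2), GATA2 by 0.46 and MAOA, which degrades catecholamines, by 0.83. HAND2 at 0.32 (log2) and GATA3 at 0.02 did not pass. The call of TAGLN3 rested on 8 kPa replicates 1 or 3, and those of STMN2, STMN1, CPLX1, PHOX2A, GATA2 and MAOA on these and on at least 1 further library.

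These neuronal counts rested on single libraries. The count of neurite genes fell to 2 when 8 kPa replicate 1 was left out, to 9 for replicate 2 and to 1 for replicate 3. Leaving out 1 kPa replicates 1, 2, 3 and 4 in turn gave 11, 6, 2 and 26. No adrenergic gene passed without 8 kPa replicates 1 or 3 or 1 kPa replicates 2 or 3, and 10 passed without 8 kPa replicate 4, while the family medians stayed at 0.44 and 0.17 without 8 kPa replicate 1. The summed level of the sympathetic marker list ran from 575 to 897 CPM at 1 kPa and from 746 to 1068 CPM at 8 kPa. The share of neuron-like cells in each culture was not tested.

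GNAZ, NMNAT2, HPCAL4 and NT5C1A were among the 15 genes with the highest fold change, of those called at 5 CPM or more without overlap. They were ranked by fold and not chosen as a group. GNAZ, a G protein alpha subunit of neurons, was at 5.10, 2.66, 2.99 and 5.32 CPM at 1 kPa and 9.25, 7.45, 9.38 and 5.81 CPM at 8 kPa (log2 fold change 0.98, SE 0.21, adjusted p = 0.012), in a family of 42 G protein and RGS genes with 11 higher and 1 lower. Leaving out 8 kPa replicates 1 and 3 in turn left 2 and 1 higher, and leaving out 1 kPa replicates 2 and 3 left 3 and 4. GNA11 rose by 0.30 (log2). NMNAT2, which makes NAD in axons and delays their degeneration, was at 24.7, 13.3, 20.03 and 31.1 CPM at 1 kPa and 50.3, 39.2, 43.2 and 31.3 CPM at 8 kPa (log2 fold change 0.87, SE 0.19, adjusted p = 0.014). HPCAL4, a neuronal calcium sensor, rose by 0.84 (log2) and NT5C1A, a nucleotidase, by 0.70. CACNG4, an auxiliary subunit of AMPA receptors, rose by 0.63 (log2), RAB3C, a GTPase of synaptic vesicles, by 0.80 and the axonal adhesion molecule CNTN1 by 0.50. GABBR1, a subunit of the GABA-B receptor, went the other way, at 79.9, 104, 85.8 and 73.6 CPM at 1 kPa and 49.4, 61.9, 51.4 and 71.3 CPM at 8 kPa (log2 fold change -0.55, SE 0.11, adjusted p = 0.012). The families of CNTN1, RAB3C and GABBR1 gave small counts: 2 of 45 neural adhesion molecules and 6 of 60 RAB GTPases rose, and of 33 transmitter receptor genes 3 rose and 3 fell. Sodium and calcium channel genes were near the background, with 3 of 30 higher and 2 lower. Of 48 potassium channels 3 fell (6.25%), near the 5.6% of all genes, and 1 rose (2.08%), under the 8.17%. The calls of GNAZ and NMNAT2 rested on 8 kPa replicates 1 or 3, and those of NT5C1A, CACNG4, RAB3C and CNTN1 on these and on at least 1 further library.

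Collagen, laminin and integrin genes passed as lower more often than as higher, on a few genes each. Of 32 collagens none rose and 3 fell, of 31 laminin and basement membrane genes none rose and 2 fell, and of 20 integrins 1 rose and 2 fell, so the shares called lower (9.38%, 6.45% and 10.0%) stand beside 5.6% of all genes. No member of these 3 families passed as lower without 8 kPa replicate 1 or without 8 kPa replicate 3. ITGAV, which pairs with several beta chains to bind RGD sites, was at 506, 566, 536 and 541 CPM at 1 kPa and 436, 473, 460.0 and 479 CPM at 8 kPa (log2 fold change -0.22, SE 0.05, adjusted p = 0.022). ITGA11, a collagen receptor chain of mesenchymal cells, was at 1118, 1115, 1166 and 952 CPM at 1 kPa and 880.5, 844, 883 and 773 CPM at 8 kPa, so 1 kPa replicate 4 stood closest to the 8 kPa libraries (log2 fold change -0.36, SE 0.10, adjusted p = 0.031). COL4A1 fell by 0.20 (log2), LAMB2 by 0.34, LTBP4, which stores latent TGF-beta, by 0.36 and the aggrecan-cleaving protease ADAMTS4 by 0.50. SEMA4A, a guidance ligand, was at 13.8, 9.83, 10.6 and 16.6 CPM at 1 kPa and 6.17, 7.16, 7.27 and 7.73 CPM at 8 kPa (log2 fold change -0.84, SE 0.16, adjusted p = 0.0096), among 31 semaphorins, plexins and neuropilins with 3 lower and none higher. CHST8, a glycan sulfotransferase, rose by 0.73 (log2). The calls of LAMB2 and LTBP4 rested on 8 kPa replicates 1 or 3, and those of ITGAV, ITGA11, COL4A1 and CHST8 on these and on at least 1 further library.

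Among genes tied to stiffness sensing, mechanosensitive channels and sensors passed as lower in a larger share than the background, and members of the YAP and TAZ pathway did not. Of 36 mechanosensitive channels and sensors 3 rose (8.33%) and 6 fell (16.7%), and of 40 members of the YAP and TAZ pathway 2 rose and 2 fell. The 3 that rose, named after their values were seen, were genes of the nuclear lamina: LMNB1 by 0.36 (log2), LMNB2 by 0.43 and TMPO, which tethers chromatin to it, by 0.38. LMNB1 was at 69.6 ± 5.86 CPM at 8 kPa against 54.1 ± 10.3 CPM at 1 kPa (mean and SD, n = 4), and 8 kPa replicate 2 (61.4 CPM) fell below 1 kPa replicate 4 (63.1 CPM). The 6 that fell, also named after their values were seen, were the channels TRPC1 by 0.25 (log2), TRPM4 by 0.37, TRPM7 by 0.20 and TMEM63A by 0.39, and SUN1 by 0.28 and SYNE3 by 0.32, which link the nucleus to the cytoskeleton. SUN1 shares exonic bases with a neighbour, so its value is uncertain. The counts of this list were 1 higher and 1 lower without 8 kPa replicate 1, and likewise without 8 kPa replicate 3. In the YAP and TAZ list, TEAD4 and DLC1 rose by 0.34 (log2) and 0.20, and TEAD3 and ARHGEF17 fell by 0.29 and 0.26, also named after their values were seen. CCN1, a direct YAP target, was at 114, 229, 158 and 52.7 CPM at 1 kPa and 68.6, 92.3, 76.1 and 117 CPM at 8 kPa. The 1 kPa libraries spanned more than the whole 8 kPa range, and the difference did not pass (log2 fold change -0.64, SE 0.31, adjusted p = 0.18). CCN2, another such target, was at 79.7, 169, 126 and 44.4 CPM at 1 kPa and 44.2, 64.1, 56.2 and 88.2 CPM at 8 kPa and did not pass either (log2 fold change -0.72, SE 0.32, adjusted p = 0.14). Nor did YAP1 itself (log2 fold change -0.15, SE 0.05, adjusted p = 0.071), WWTR1, which encodes TAZ (log2 fold change -0.18, SE 0.12, adjusted p = 0.34), or the channel PIEZO1 (log2 fold change -0.09, SE 0.18, adjusted p = 0.78). VIM, the mesenchymal intermediate filament, was at 1497 ± 242 CPM at 8 kPa against 1509 ± 204 CPM at 1 kPa (mean and SD, n = 4) (log2 fold change -0.01, SE 0.14, adjusted p = 0.97). A p that misses the threshold does not show that a level was the same. Actin, myosin and tropomyosin genes gave 14 of 59 higher (23.7%) and 3 lower, and the counts were 4 and 2 without 8 kPa replicate 1 and 2 and 2 without 8 kPa replicate 3. No YAP and TAZ member passed in either of those fits. The calls of LMNB1, TMPO, TRPC1, TRPM7, TMEM63A, SUN1, SYNE3, TEAD4, DLC1, TEAD3 and ARHGEF17 rested on 8 kPa replicates 1 or 3 and on at least 1 further library.

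Solute carriers, ABC transporters and receptor tyrosine kinases passed as lower more often than as higher, the kinases on 2 genes only. Of 201 solute carriers outside the mitochondrial SLC25 family, 21 fell and 2 rose (median -0.15), and 160 of the 201 had a value below 0. SLC2A11, a hexose carrier, was at 36.1, 37.5, 34.2 and 34.6 CPM at 1 kPa and 20.4, 24.4, 20.1 and 27.4 CPM at 8 kPa (log2 fold change -0.62, SE 0.09, adjusted p = 0.0052). SLC15A4, a lysosomal peptide and histidine carrier, was at 29.9, 29.8, 29.1 and 27.9 CPM at 1 kPa and 21.5, 25.4, 22.4 and 23.9 CPM at 8 kPa (log2 fold change -0.32, SE 0.06, adjusted p = 0.011). Both passed in each of the 12 fits that left out a library, but the family count was 5 without 8 kPa replicate 1 and 3 without 8 kPa replicate 3. Of 37 ABC transporters 4 fell, ABCC5, an exporter of cyclic nucleotides, by 0.32 (log2). Of 24 receptor tyrosine kinases 2 fell and none rose. EGFR, the epidermal growth factor receptor, was at 337, 319, 329 and 369 CPM at 1 kPa and 247, 266, 254 and 292 CPM at 8 kPa (log2 fold change -0.35, SE 0.07, adjusted p = 0.0096), and DDR1, a collagen-binding kinase, at 169, 214, 192 and 151 CPM at 1 kPa and 121, 142, 133 and 137 CPM at 8 kPa (log2 fold change -0.44, SE 0.09, adjusted p = 0.012). ALK, a neuroblastoma driver, had a value of 0.06, SE 0.14, adjusted p = 0.8. The call of ABCC5 rested on 8 kPa replicates 1 or 3.

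Interferon response genes passed as lower more often than as higher: 14 of 73 fell and 1 rose (median -0.17). Interferons act through STAT transcription factors to raise a set of antiviral and antigen-presentation genes. STAT2 was at 157, 195, 162 and 126 CPM at 1 kPa and 102, 121, 111 and 124 CPM at 8 kPa, with 1 kPa replicate 4 only just above the highest 8 kPa library (log2 fold change -0.49, SE 0.10, adjusted p = 0.013). PARP14, a mono-ADP-ribosyl transferase, was at 109, 119, 116 and 115 CPM at 1 kPa and 90.6, 91.6, 90.1 and 93.9 CPM at 8 kPa (log2 fold change -0.33, SE 0.05, adjusted p = 0.0052). TAPBP, which loads peptide onto class I molecules, was at 183, 196, 184 and 161 CPM at 1 kPa and 126, 146, 133 and 135 CPM at 8 kPa (log2 fold change -0.42, SE 0.06, adjusted p = 0.0055). DDX60, a helicase of antiviral sensing, fell by 0.36 (log2). ISG15, a ubiquitin-like modifier, was the single member that rose, by 0.43 (log2), and is named after its values were seen. STAT2, PARP14, TAPBP and DDX60 passed in all 12 fits that left out a library, and 4 members in all were lower without 8 kPa replicate 1, and 4 without 8 kPa replicate 3. In the NF-kB group 5 of 71 fell (7.04%), near the 5.6% of all genes, and 1 rose (1.41%), under the 8.17%. Lower members included TRAF5, down by 0.41 (log2), and the kinase IKBKB, by 0.30. The call of ISG15 rested on 8 kPa replicates 1 or 3 and on at least 1 further library.

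Among other signalling genes MYC, the growth-promoting transcription factor, was at 15.7, 9.62, 11.8 and 14.7 CPM at 1 kPa and 22.8, 18.6, 20.4 and 17.6 CPM at 8 kPa (log2 fold change 0.61, SE 0.14, adjusted p = 0.016), while MYCN, at 1.29 ± 0.306 CPM at 8 kPa against 1.10 ± 0.3 CPM at 1 kPa (mean and SD, n = 4), did not pass (log2 fold change 0.20, SE 0.26, adjusted p = 0.63). ID1, a BMP target that blocks differentiation factors, rose by 0.57 (log2). NKD1, a feedback inhibitor of WNT signalling, was at 4.12, 2.80, 3.06 and 4.68 CPM at 1 kPa and 8.79, 6.68, 6.14 and 4.99 CPM at 8 kPa (log2 fold change 0.84, SE 0.19, adjusted p = 0.015). WNT2B, a WNT ligand, lay in narrow groups, at 8.04, 8.11, 8.32 and 8.29 CPM at 1 kPa and 5.45, 5.51, 5.51 and 5.69 CPM at 8 kPa (log2 fold change -0.56, SE 0.09, adjusted p = 0.0071). ZFP36, which destabilises cytokine mRNAs, fell by 0.55 (log2). No member of the 40 FGF ligands, receptors and feedback regulators passed the test. Of 41 glutathione and oxidative stress genes 7 rose and 3 fell, with GSTP1 up by 0.37 (log2), PRDX2 by 0.40 and GSTM2, which overlaps a neighbour, down by 0.74. The other members that fell, named after their values were seen, were SLC7A11 and SLC3A2, the chains of the cystine and glutamate exchanger. SLC7A11 was at 185, 201, 195 and 214 CPM at 1 kPa and 124, 165, 126 and 147 CPM at 8 kPa (log2 fold change -0.50, SE 0.11, adjusted p = 0.014), and SLC3A2 fell by 0.35 (log2). The calls of MYC, ID1 and SLC7A11 rested on 8 kPa replicates 1 or 3, and that of SLC3A2 on these and on at least 1 further library.

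Chromatin families differed in direction. Of 25 high mobility group and DNA methylation genes, which bend or mark DNA, 7 rose and 1 fell (median 0.14), and 3 and 1 were higher without 8 kPa replicates 1 and 3. Of 57 lysine methyltransferases and demethylases 9 fell and 3 rose, with EZH1, of Polycomb complex 2, down by 0.35 (log2) and SETDB1, which silences repeats, by 0.27. The 3 that rose, named after their values were seen, were the heterochromatin enzymes SUV39H1 and SUV39H2, by 0.46 (log2) and 0.36, and NSD2, by 0.19. Without 8 kPa replicate 1, 2 of this family fell and none rose, and without 8 kPa replicate 3, 1 fell and none rose. Of 469 tested ZNF genes 28 fell and 12 rose, shares near or under the background in both directions, and their median turned from -0.03 to 0.03 with depth class as a second term. ZNF83 was at 91.5, 110.1, 92.6 and 84.1 CPM at 1 kPa and 56.8, 70.7, 64.5 and 75.6 CPM at 8 kPa (log2 fold change -0.50, SE 0.09, adjusted p = 0.0079), ZNF117 fell by 0.40 (log2), and ZNF423, a factor of neuronal and fat precursors, rose by 0.76. BTBD19 fell by 0.60 (log2). The calls of SETDB1, SUV39H1, SUV39H2, NSD2 and ZNF423 rested on 8 kPa replicates 1 or 3 and on at least 1 further library.

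Noncoding RNAs were rarely higher at 8 kPa, and most of those that passed were lower. Of 3025 noncoding genes tested (antisense, long intergenic, sense and similar types of GENCODE v29), 188 (6.22%) were lower and 23 (0.760%) were higher, with a median log2 fold change of -0.16. Of 13628 protein-coding genes 751 (5.51%) were lower and 1379 (10.1%) were higher, with a median of 0.01. NEAT1, the scaffold of nuclear paraspeckles (chr11:65422774-65445540, plus strand, GRCh38), was at 1657, 2140.0, 1798 and 1405 CPM at 1 kPa and 833, 1085, 944 and 1204 CPM at 8 kPa. Every 8 kPa library was below every 1 kPa library, and the log2 fold change was -0.78, SE 0.13, adjusted p = 0.0069. MALAT1, an abundant RNA of nuclear speckles that lies beside NEAT1 (chr11:65497688-65506516, plus strand, GRCh38), was at 1692, 2093, 1762 and 1617 CPM at 1 kPa and 1046, 1143, 1018 and 1312 CPM at 8 kPa (log2 fold change -0.67, SE 0.10, adjusted p = 0.0062). Both passed in all 12 fits that left out a library. Among the 15 tested members of the NEAT1, MALAT1 and paraspeckle protein list 4 fell, and the others that did, named after their values were seen, were the nuclear matrix protein MATR3 (-0.52, log2) and RBM14 (-0.20). Both share exonic bases with another gene on the same strand, so their values are uncertain. The calls of MATR3 and RBM14 rested on 8 kPa replicates 1 or 3 and on at least 1 further library.

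Because most noncoding genes were scarce, the shares were also set side by side at like levels. When tested genes were split into 5 equal classes by mean level, 21.8% of 239 noncoding genes were lower in the middle class against 5.34% of 3241 coding genes. In the highest class the shares were 36% of 25 and 7.20% of 3554, and in the lowest 2.44% of 1642 and 1.51% of 1190. By type, 69 of 1312 antisense genes fell (5.26%) and 7 rose (0.534%), with a median of -0.16. Of 1085 long intergenic RNAs 58 fell (5.35%) and 8 rose (0.737%). Of 187 sense intronic RNAs 11 fell (5.88%) with none higher (median -0.29). In these types the shares lower lay near the 5.6% of all genes tested, and the shares higher lay far under 8.17%. Of 204 genes typed as processed transcripts, however, 31 fell (15.2%) and 6 rose. Processed pseudogenes were more often higher than lower, with 43 of 383 higher and 10 lower. The median of the noncoding genes was -0.16 both with and without 8 kPa replicate 1. Without that library depth class follows stiffness exactly, so the equal medians are no check on depth. Relative to the 8 libraries, mean log2 levels of antisense genes overlapped between groups, at -0.037 in 1 kPa replicate 4 and -0.019 in 8 kPa replicate 2. Those of long intergenic and sense intronic genes did not overlap. The strand setting of the counting is not given in the sources used here, so reads of an antisense gene and of its partner, and reads of introns, cannot be told apart from the noncoding transcript. Gene length moved with the calls too: in the shortest of 5 length classes 10.9% were higher and 3.10% lower, and in the longest 4.31% and 8.74%. With the length and GC offset the median was -0.14 for antisense genes (-0.16 without it), -0.10 for long intergenic RNAs (-0.12) and -0.24 for sense intronic RNAs (-0.29).

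**Figure D4:**
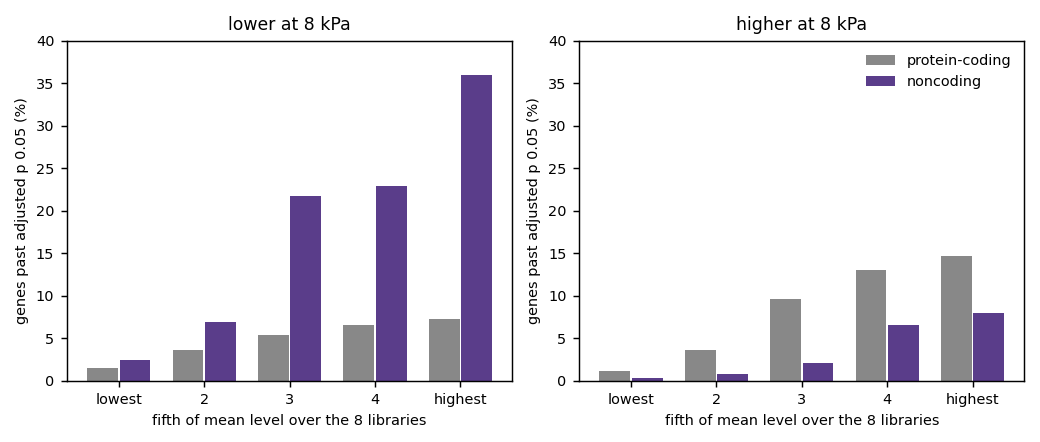
Share of protein-coding (grey) and noncoding (purple) genes past an adjusted p of 0.05 in edgeR's test, in 5 classes of mean level over the 8 libraries, for genes lower (left) and higher (right) at 8 kPa. Noncoding genes are lower more often than coding genes in each of the 5 level classes and higher less often in each.

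The remaining genes with the lowest fold changes, of those called at 5 CPM or more without overlap, were largely noncoding or overlapping loci. MIR29B2CHG and MIR23AHG, hosts of microRNAs, fell by 0.68 (log2) and 0.65. TSIX, the antisense partner of an X-linked RNA, fell by 0.96 (log2). It shares 20.25% of its exonic bases with the other strand's genes, and reads over those bases cannot be told apart without strand. YJEFN3, TTLL3, THBS3-AS1 and STAG3L5P fell by 0.65 (log2), 0.65, 0.70 and 0.70, and each shares exonic bases with another gene, so these values are uncertain. With a change of at least 2-fold 60 genes (0.334%) passed, 26 higher and 34 lower. Most were scarce, since 42 of the 60 had a mean under 1 CPM and 3 reached 5 CPM, and 16 were protein-coding. Only 7 of the 60 passed at 5% in all 12 fits that left out a library. The call of MIR29B2CHG rested on 8 kPa replicates 1 or 3, and that of MIR23AHG on these and on at least 1 further library.

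**Figure D5:**
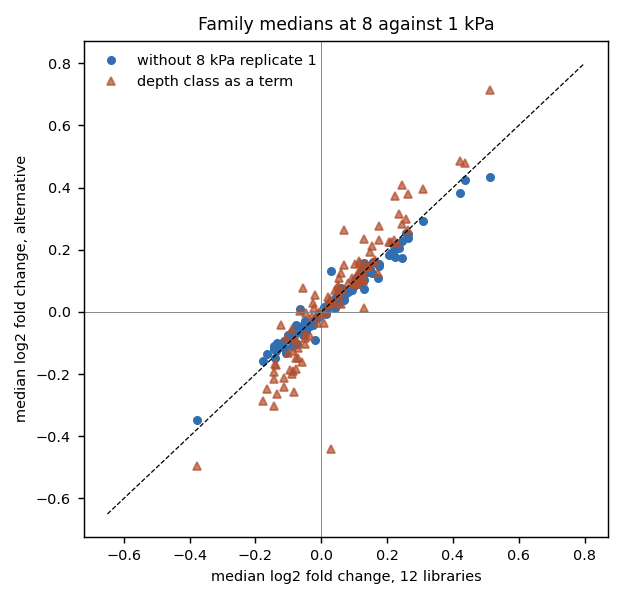
Median log2 fold change of each of the 103 families with at least 5 tested members under 2 alternatives (vertical) against the median with all 12 libraries (horizontal). Circles leave out 8 kPa replicate 1, triangles take depth class as a second term, and the dashed line marks equal values. Points lie near the line for most families, and the signs differ in 2 and 8 families with medians near 0. Without 8 kPa replicate 1 depth class follows stiffness exactly, so the circles are no check on depth.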

How the data were processed

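RNA-seq was made from 12 libraries of SK-N-SH cells on 1, 8 or 30 kPa substrates. The table the authors deposited gives raw counts, with genes as Ensembl identifiers. Reads were aligned with HISAT2 to GRCh38, per the submitters' processing notes. The counting tool, annotation release, strand setting and filters are not given in the sources used here. Of 60664 genes, 60463 matched the table of names, 42028 had a symbol and 58396 were found in GENCODE v29, which gave positions, types, lengths and GC content on the same build.

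The tests used edgeR 4.0.16 under R 4.3.3. Scarce genes were dropped with filterByExpr, which left 17960, and library sizes were scaled by TMM. All 12 libraries were fitted with stiffness as the only term, and 8 against 1 kPa was compared with the quasi-likelihood F-test, with Benjamini-Hochberg adjustment over the 17960 genes and a threshold of 0.05. The biological coefficient of variation was 0.0966. The standard error (SE) is the size of the log2 fold change divided by the root of F. Levels are CPM after TMM. The code was tested on simulated data.

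The members, families and lists were chosen with earlier results of these data known, so no pattern here is independent support. The rule for naming genes took, among called genes with a symbol, a mean of at least 5 CPM and groups that did not overlap, the 15 with the highest and the 15 with the lowest fold change. From each family it took, at 5 CPM or more, up to 4 members with the smallest adjusted p, up to 2 called against the family's majority, and those with the highest and lowest fold. It always took YAP1, WWTR1, CCN1, CCN2, PIEZO1, MYC, MYCN, ALK, VIM, MKI67, GATA3, HAND2, NEAT1 and MALAT1, and some genes it takes are not reported here. The text prints 226 genes, not every gene that this rule takes, and says which were named after their values were seen. Genes that share more than 10% of exonic bases with a gene on their strand, or more than 30% with a gene on the other, are marked as overlapping.

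Alternatives were DESeq2 1.42.0, limma-voom (limma 3.58.1), median-ratio size factors, no filter, a filter of at least 5 CPM in 4 libraries, the 8 libraries alone, the replicate number as a block, the depth class (totals under or over 2e+07) as a term, thinning to 14317437 counts, an offset for length and GC content, and leaving out each library. The mitochondrial share was compared with an exact permutation test.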

Additional observations from a re-analysis of the deposited data

Results flagged for a closer look

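Levels of 226 named genes, and the mitochondrial share, were searched within each group of 4 libraries for a library far from the other 3. In 12 of 454 groups of values the gap to the nearest library, as a share of the group's range, was past Dixon's 95% critical value, which chance passes in about 1 of 20 groups. In 1 kPa replicate 2, RPL36A was at 34.02 CPM (others 21.5 to 21.6), PNISR at 541 (452 to 460.5), KIFC2 at 56.9 (48.4 to 49.4), TTLL3 at 71.5 (54.1 to 56.95), RBM14 at 35.96 (34.69 to 34.73) and ARHGEF17 at 89.6 (72.7 to 74.7), all on the high side. On the low side that library held SNHG29 at 158 CPM (196 to 199.5), NDUFB3 at 34.6 (36.96 to 37.4) and CENPN at 14.1 (17.6 to 18.2). In 8 kPa replicate 4, GATA2 was at 104 CPM (136.5 to 141) and RAB3C at 20.6 (37.5 to 38.4), both low, and PAM16 at 5.77 (3.83 to 4.07), high. The library 1 kPa replicate 2 lay at the low end of the first principal component. The cause of these values was not tested.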

How the results depend on the processing

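The count of genes called, 2472, was 0 with depth class as a second term and 1068 in the 8 libraries alone, and ran from 534 (8 kPa replicate 3 left out) to 3563 (1 kPa replicate 4 left out) over the fits that left out a library. It was 2894 with DESeq2, 2347 with limma-voom, 2479 with median-ratio size factors, 2452 with no filter, 2670 with the stricter filter, 2336 after thinning and 2302 with the length and GC offset. The count of changes of at least 2-fold, 60, was 0 with depth class as a second term, 4 with the stricter filter, which tested fewer genes, and 21 in the 8 libraries alone, and ran from 8 to 145 when a library was left out. The difference in the share of counts from the mitochondrial genome ran from -3.52 to -2.34 percentage points when a library was left out, with an exact permutation p of 0.0571 or 0.114. Of 214 named genes that passed, 128 did so in all 12 such fits. The number that failed was 214 with depth class as a second term, 86 without 8 kPa replicate 3, 73 without 8 kPa replicate 1 and 54 in the 8 libraries alone. No named gene that passed changed direction. The cause of these losses was not tested.

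Named genes that did not pass and changed sign were as follows. With a library left out, log2 fold changes ran from -0.060 (without 1 kPa replicate 2) to 0.067 for GATA3, from -0.025 (without 8 kPa replicate 3) to 0.12 for ALK, from -0.25 to 0.092 (without 1 kPa replicate 2) for PIEZO1 and from -0.11 to 0.075 (without 8 kPa replicate 2) for VIM. GATA3 was also below 0 without 8 kPa replicate 1 (-0.019), PIEZO1 above 0 without it (0.024), and VIM above 0 without 1 kPa replicates 3 (0.015) and 4 (0.057) and without 8 kPa replicate 1 (0.013). VIM was at 0.0046 with no filter and WWTR1 at 0.00057 with depth class as a second term. The cause was not tested.

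With the replicate number as a block 3273 genes passed, 68 of them changed at least 2-fold. The labels do not say whether same-numbered libraries shared more than a number. Correlations of the deviations of same-numbered libraries from their group means were 0.18, 0.24, 0.001 and -0.13. Not every library correlated best with its own number. Totals of 14317437 to 25349320 counts limit what can be seen for scarce genes.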

Other observations

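Several families not described above also had members that passed. Of 31 nucleoporins, which line the nuclear pore, 6 were higher at 8 kPa and none lower. Of 25 condensin and cohesin subunits, which fold and hold chromatids, 5 were higher and 1 lower. Of 68 synaptotagmins and SNARE proteins, which fuse vesicles, 7 were higher and 2 lower. Of 39 autophagy core genes 4 were higher and 3 lower, and of 51 chromatin remodellers 2 were higher and 5 lower. Without 8 kPa replicate 1 the counts higher were 1 nucleoporin, 1 condensin or cohesin subunit, no synaptotagmin or SNARE gene and 1 autophagy gene, and without 8 kPa replicate 3 none of these 4 families had a member higher. The remodellers lower numbered 3 and 2 in those fits. The background over all genes tested was 8.17% higher and 5.6% lower.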
